A study of Canis lupus familiaris with 33 samples.

Results

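The first 3 Mb of dog chromosome 12 holds the larger part of the canine major histocompatibility complex (MHC), and its methylated regions were compared across 11 tissues. The regions are all peaks that start below position 3000000 on chromosome 12 in the 11 deposited tissue lists, a choice made by position alone. They number 5032 of 3300391 peaks in all lists, or 5032 of 3158680 on the 38 autosomes. The lists come from MBD-seq, a method that pulls down methylated DNA fragments with the domain by which certain proteins bind methylated CpG, and sequences what was bound. The series has 33 libraries from healthy adult beagles: 22 capture (MBD) libraries and 11 input libraries of uncaptured DNA. Spleen, the brain tissues cerebrum and cerebellum, lung, liver, kidney, pancreas, stomach, colon, ovary and mammary gland have 2 MBD libraries and 1 input library each, and both MBD libraries of a tissue carry the same peak list in the labels. The labels name no treatment, and tissue is the factor compared. A single female gave an MBD library to all 11 tissues, so the tissues are not independent animals. The second MBD library is titled jj8 in 7 tissues and comes under another title in colon and stomach and under a further one in ovary and mammary gland, so animal and tissue cannot be told apart in full. By their labels, spleen, cerebrum, cerebellum, lung and liver have 1 female and 1 male MBD library and an input titled jj8. Kidney and pancreas have the same sexes, with an input titled as the single female that gave to all tissues. Colon and stomach have 2 female MBD libraries and an input titled jj8. Ovary and mammary gland have 2 female MBD libraries and an input titled as that same single female. Animal jj8 is labelled male in the MBD libraries and female in the inputs. Whether the tissues are what their labels say was not checked here, since peak lists hold no expression of marker genes. With 1 list per tissue no spread between animals can be computed, each tissue is 1 datapoint, and the number of reads behind a peak is unknown.

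The MHC encodes the proteins that present peptides to T cells. Class I molecules display peptides from inside the cell on nearly all nucleated cells, class II molecules display peptides taken up by antigen-presenting cells, which are abundant in spleen, and the class III genes between them encode complement factors and cytokines such as TNF along with many genes of general function. DNA methylation at CpG-dense start sites generally goes with a silent gene, whereas methylation inside gene bodies and between genes is common in all tissues, so a peak alone does not tell whether a gene is on.

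Positions are those of CanFam3.1, the build given in the submitters' processing notes. The last peak on chromosome 1 ends at position 122678739. A gene annotation of that build was not used here, so peaks were not assigned to genes, exons or promoters, and the name of the window rests on what is known of this chromosome end and not on the lists. Gene order was read from RefSeq's annotation of another dog assembly, UU_Cfam_GSD_1.0, in which 71 of 84 listed genes of the complex and its flanks were matched by name, 71 of them on chromosome 12. There, DDR1, VARS2 and CCHCR1 precede the class I genes DLA-88 and DLA-64. The class III genes follow, from DDX39B, TNF and its relatives LTA and LTB, through BAG6 and the complement genes C2 and CFB to TNXB and NOTCH4. The class II genes DLA-DRA, DLA-DRB1, DLA-DQA1 and DLA-DQB1 come next, then DLA-DOB with TAP2, PSMB8, TAP1 and PSMB9, which cut and transport peptides for class I, and then DLA-DMB, DLA-DMA and DLA-DOA. COL11A2, RXRB, TAPBP and DAXX lie beyond them.

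All 11 tissues carried a similar number of peaks in the window. Ovary had 498 peaks, cerebellum 491, liver 482 and cerebrum 479. Kidney had 467, spleen 460, stomach 448 and lung 447. Colon had 429, pancreas 419 and mammary gland 412. Spleen thus stood at the median of the 11 tissues, and the spread over tissues was 457 ± 29.1 peaks (SD, n = 11), or 6.37% of the mean, against 11.9% for the autosomal length of the lists. As a share of each list's autosomal peaks the order was different: ovary (0.141%) and cerebellum (0.144%) were lowest and lung (0.172%) and colon (0.171%) highest, with spleen at 0.165%. Covered bases varied more, by 12.02% of the mean. Kidney (239.908 kb), ovary (236.835 kb) and cerebrum (236.285 kb) had the most bases under peaks, and pancreas (171.917 kb), stomach (179.041 kb) and colon (185.968 kb) the fewest. Spleen had 188.318 kb, cerebellum 196.063 kb, mammary gland 200.583 kb, liver 217.796 kb and lung 223.672 kb. The shortest peak of a list is 218 bases in kidney and ovary and 210 in cerebrum, but 175 in pancreas, 185 in stomach and 192 in colon. In the tissues between these it is 210 in lung, 182 in liver, 215 in mammary gland, 188 in cerebellum and 182 in spleen. The part of this length in the order was not tested. As a share of covered autosomal bases ovary (0.113%) was second lowest after cerebellum (0.109%), and colon (0.126%) and kidney (0.125%) were alike. Peaks covered between 5.73% (pancreas) and 7.997% (kidney) of the window. Spleen covered 6.28%. Peaks were narrowest in pancreas, with a median width of 283 bases, and widest in kidney, with 356 bases. Spleen peaks had a median width of 292 bases.

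The signal value of each peak, read as a fold enrichment, was divided by the median of its list so that 1 marks a peak of average strength for its tissue. The median of this relative fold in the window was 1.02 in kidney, 1.01 in liver, 0.999 in cerebrum, 0.997 in cerebellum, 0.995 in lung and 0.995 in mammary gland. It was 0.963 in spleen, 0.952 in pancreas, 0.933 in colon, 0.905 in stomach and 0.898 in ovary. Peaks of the window were therefore of average strength or slightly weaker in their own list. The strongest single peak reached 6.31 times the list median in mammary gland and 5.34 times in lung, and 2.42 times in ovary. In the first 3 Mb of the other 37 autosomes the maxima ran from 4.95 to 8.86 in mammary gland, from 5.30 to 11.4 in lung and from 2.38 to 4.13 in ovary, so these values lay in the lower part of the range of their own lists. In spleen the maximum was 4.33 times the list median (a fold of 28.2), in a peak from 1035937 to 1036344.

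Set beside the first 3 Mb of the other 37 autosomes, the window lay somewhat below the middle in peak number, covered bases and strength, whereas with a window of 4 Mb its median rank over tissues was 17 by peak number and 19 by covered bases, just above the middle. By peak number it ranked between 21 and 23 among the 38 windows in every tissue, and by covered bases likewise between 21 and 23. In spleen its 460 peaks compare with a median of 528 in the other windows, whose range was 173 to 1443. Its covered bases were between 0.692 (ovary) and 0.766 (cerebellum) times the median of the other 37 windows, and 0.706 times in spleen. By median relative fold it ranked between 21 (kidney, liver and lung) and 37 (stomach), with spleen at 28 and ovary at 36. Ranks among chromosomes describe these lists, since chromosome ends are no replicates of each other.

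**Figure D1:**
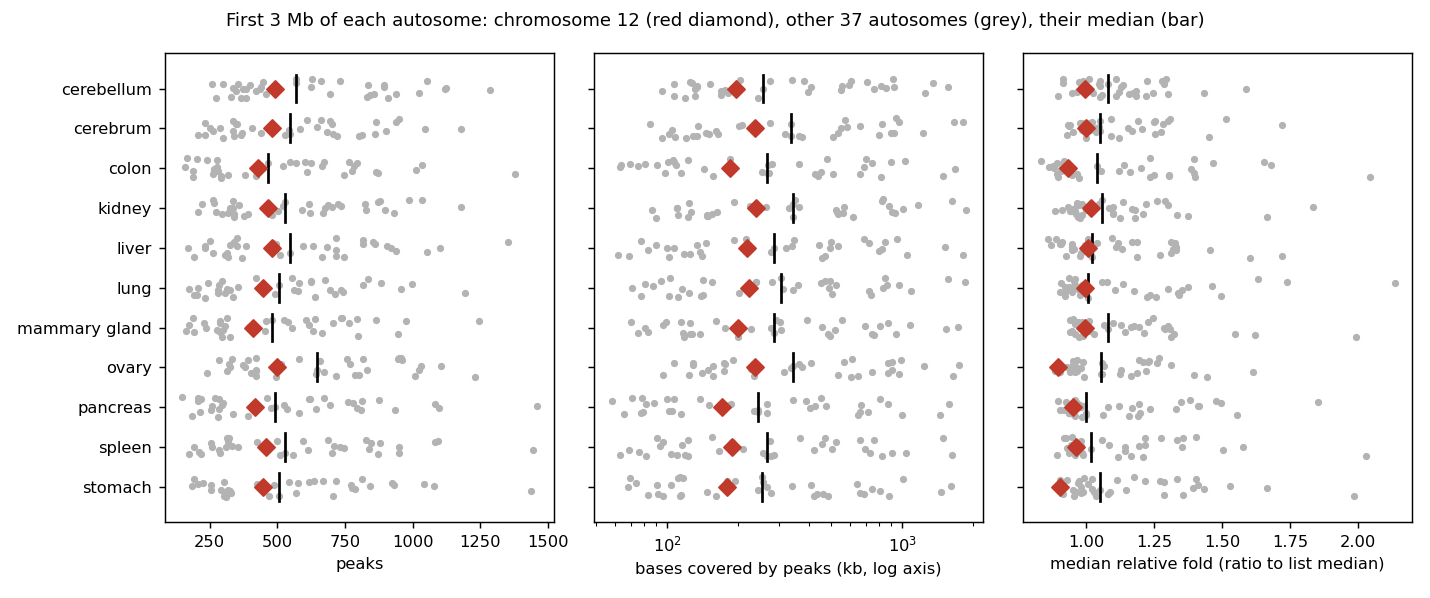
Peaks (left), bases covered by peaks in kb on a log axis (middle) and median relative fold (right) in the first 3 Mb of each autosome, 1 row per tissue. The red diamond is chromosome 12, grey points are the other 37 autosomes and the black bar is their median. Chromosome 12 lies left of the bar in all 3 panels in every tissue, with 412 to 498 peaks.

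Overlapping peaks of different tissues (at least 1 base) were joined to union regions, which gave 717 regions in the window, 357.438 kb in all. A tissue counts as present in a region when it has a peak there. Its relative fold in a region is that of its highest peak there. The mean relative fold of a region is a geometric mean over the tissues with a peak. Of the 717 regions, 187 had a peak in all 11 tissues, or 26.1% (95% Wilson interval 23.0% to 29.4%), against a background of 27.0% over all autosomes. A peak in 1 tissue alone was found in 123 regions, or 17.2% (14.6% to 20.1%), against 18.2%. Both shares were thus near their background here. With lists cut to equal size the share in all tissues was 20.6% against 25.2%, and with each list cut to its upper 50% by fold (the stricter threshold) it was 15.1% against 17.9%, so it lay further below its background. Regions with a peak in 10 tissues numbered 81, or 11.3% (9.18% to 13.8%), against 8.81%. The first 3 Mb of the other 37 autosomes had a median of 31.7% of regions in all tissues, from 20.8% on chromosome 32 to 62.0% on chromosome 17, and the window ranked 29 among the 38.

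Shared regions were wider and stronger than the rest, as over the autosomes. Part of this follows from how regions were made. Joining peaks of more tissues widens a region, and the highest peak per tissue was taken. The 187 regions present in all tissues were 676 bases wide at the median, against 798 bases over all autosomes, and held 45.03% of the union bases of the window, against 55.3%. The 123 regions of 1 tissue were 238 bases wide at the median. The mean relative fold of a region had a median of 1.41 in the former and 0.628 in the latter. Overlap between 2 tissues was measured as bases under peaks of both divided by bases under peaks of either (Jaccard index). It had a median of 0.640 over the 55 pairs in the window and of 0.702 over all autosomes. Among the 38 first-3-Mb windows this median ranked 28. Colon and stomach were the closest pair in the window at 0.740, as over the autosomes at 0.805. Cerebellum and lung were the least alike at 0.5156, with cerebellum and spleen almost the same at 0.5160. The mean index of spleen with the other 10 tissues was 0.630, rank 9 of 11, against 0.696 and rank 7 over all autosomes. Spleen minus the mean of all pairs was −0.00085, which ranked 35 among the 38 windows, with the other 37 between −0.0101 and 0.0237.

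**Figure D2:**
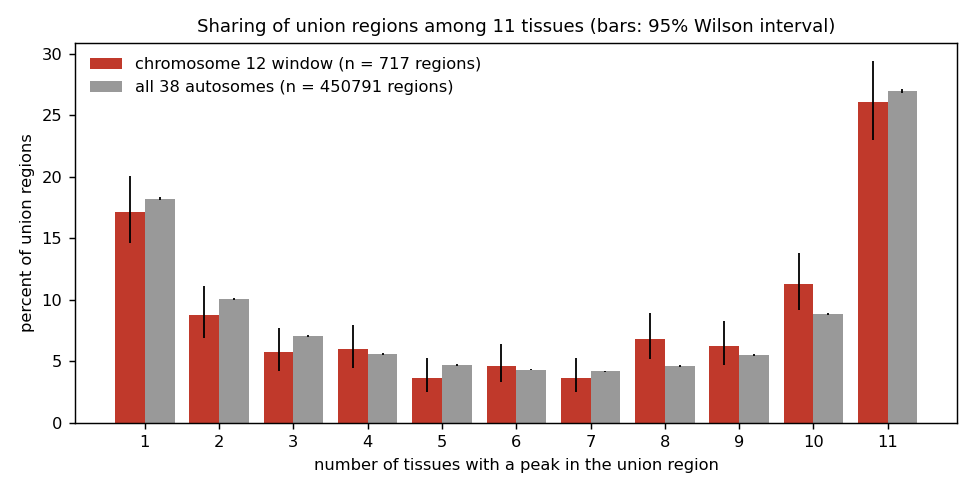
Percent of union regions (vertical axis) with a peak in 1 to 11 tissues (horizontal axis), for the 717 regions of the chromosome 12 window (red) and for all 38 autosomes (grey), with 95% Wilson intervals. Both sets are highest at 11 tissues (26.1% and 27.0%) and next at 1 tissue (17.2% and 18.2%).

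Spleen was compared with the other 10 tissues because it is rich in the cells that use class II molecules. By all 4 summary measures it lay inside the range of the others. Of its autosomal peaks, 0.165% lay in the window, against 0.160% ± 0.0102 (SD, n = 10) in the others, whose range was 0.141% to 0.172% (exact permutation test, two-sided, p = 0.545, adjusted p = 0.727). Of its covered autosomal bases, 0.124% lay there against 0.123% ± 0.00694 (SD, n = 10; exact permutation test, two-sided, p = 0.636, adjusted p = 0.727). The median relative fold was 0.963 against 0.970 ± 0.0441 (SD, n = 10; exact permutation test, two-sided, p = 1, adjusted p = 1). Spleen had a peak in 58.2% of the union regions of the window and in 53.6% of those of all autosomes. This difference of 4.603 points compares with 2.17 ± 4.54 points in the others (SD, n = 10; exact permutation test, two-sided, p = 0.636, adjusted p = 0.727). Spleen ranked 4, 5, 7 and 5 among the 11 tissues in these measures, so no difference exceeded the spread between tissues. With 1 tissue against 10 the smallest possible p is 0.0909, so the test could not pass 0.05 in any case. Among the 7 tissues whose input is titled jj8, spleen ranked 4, 4, 5 and 5, with exact permutation p-values of 0.857, 1, 1 and 1, where 0.143 is the smallest possible.

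The regions that spleen alone held or lacked were then counted. Spleen alone had a peak in 15 of the 717 regions, or 2.09% (95% Wilson interval 1.27% to 3.42%), against a background of 0.654% over all autosomes. This was the highest share among the 38 first-3-Mb windows, where the next were chromosome 25 with 1.49% and chromosome 10 with 1.45%. The interval also lay above the background for colon (0.697% against 0.279%), mammary gland (0.697% against 0.251%) and pancreas (0.418% against 0.0927%), on 3 to 5 regions each. For stomach (0.418% against 0.181%), liver (1.53% against 0.998%), cerebrum (1.26% against 0.847%), kidney (1.26% against 0.905%) and lung (0.558% against 0.378%) the interval included the background. Mammary gland and pancreas likewise had their highest share of the 38 windows here, on 5 and 3 regions. Cerebellum, with 35 regions (4.88% against 7.77%), and ovary, with 24 (3.35% against 5.86%), had fewer. No test was made of these shares, since regions of 1 list are no replicates. The intervals cover counting error only, take regions as independent and were not adjusted for the number of tissues. They therefore decide nothing on single tissues.

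The 15 regions of spleen alone were short and weak. Their widths ran from 185 to 275 bases and their relative folds from 0.453 to 1.01 with a median of 0.646, close to the 0.633 of the 2948 such regions on all autosomes. The strongest lay at 901391 to 901656 with a relative fold of 1.01, and the next at 285785 to 286033 with 0.990. Those at 2661122 to 2661340, 1360442 to 1360663 and 1209960 to 1210202 had 0.812, 0.809 and 0.799. All but the first were thus below the median spleen peak. In alternatives chosen after seeing the data, the share stayed above its background. With the stricter threshold 7 regions were in spleen alone, or 1.67% of 418 (95% Wilson interval 0.814% to 3.42%) against 0.947% over all autosomes, which the interval includes. With lists of equal size there were 18, or 2.85% of 632 against 0.994%. A window of 2 Mb gave 11, or 2.12% of 518, and one of 4 Mb gave 15, or 1.40% of 1073, both against 0.654%.

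Regions with a peak in every tissue but spleen numbered 7, or 0.976% (95% Wilson interval 0.474% to 2.001%), near the background of 0.835%. The first, at 174962 to 175315, had relative folds from 0.730 in cerebrum to 1.34 in mammary gland in the other 10 tissues. The region at 1921188 to 1921509 ranged from 0.708 in liver to 1.88 in cerebellum. The regions at 2310667 to 2311001, 582117 to 582694 and 1263796 to 1264135 had medians of 0.919, 0.857 and 0.852 in the other tissues. The highest of these 5 medians, in the first region, was 1.04, while single peaks reached 1.88. Cerebellum alone lacked 28 regions, 3.91% against a background of 2.92%, ovary 11 (1.53% against 0.762%) and pancreas 9 (1.26% against 0.670%). Stomach and lung alone lacked 6 each, 0.837% against 0.314% and 0.969%, and colon 5, 0.697% against 0.699%. Mammary gland lacked 3 (0.418% against 0.457%), and cerebrum, kidney and liver 2 each (0.279% against 0.317%, 0.444% and 0.425%). The Wilson interval lay above the background for stomach (0.384% to 1.81%) and ovary (0.859% to 2.73%), and the stomach share was the highest of the 38 windows. These intervals have the same limits as those for peaks in 1 tissue alone. The region of the 28 with the highest folds elsewhere, from 1546055 to 1546972, had a median of 2.01 in the other tissues, and was picked after its values were seen.

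**Figure D3:**
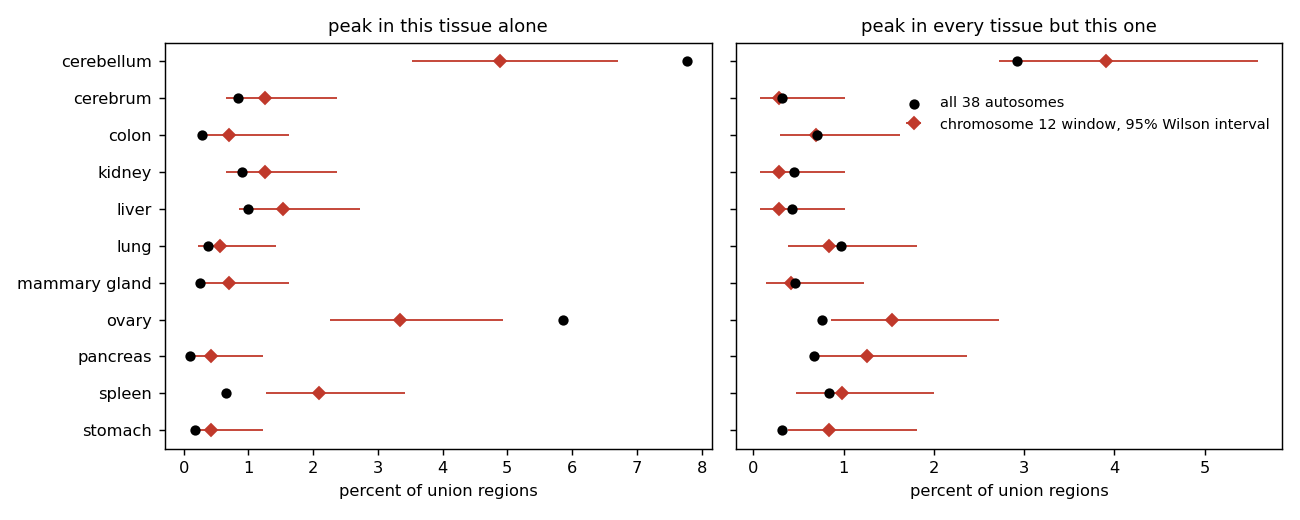
Percent of union regions (horizontal axis) with a peak in the named tissue alone (left) and in every tissue but the named one (right), 1 row per tissue. Red diamonds are the 717 regions of the chromosome 12 window with 95% Wilson intervals and black points are all 38 autosomes. In the left panel spleen lies at 2.09% against 0.654%, and cerebellum and ovary lie below their autosomal points.

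Relative folds were compared over the 187 regions with a peak in all 11 tissues, where every tissue has a value. Spleen was the lowest of the 11 tissues in 22 regions, 11.8% against a background of 7.87%, and the highest in 15, 8.02% against 7.79%. With lists of equal size spleen was lowest in 10 of 130 such regions, 7.69% against 7.25%, and with the stricter threshold in 5 of 63, 7.94% against 7.68%, so the share above background did not hold there. In the same settings spleen was highest in 6 regions, 4.62% against 7.37%, and in 3, 4.76% against 7.09%, which is below the background. It was lower than the median of the other 10 tissues in 96 of the 187 regions, 51.3% against 47.8% over all autosomes. The median difference was −0.01 on the log2 scale, against 0.02 over all autosomes. Spleen was at least 2-fold below that median in 5 regions, 2.67% against 1.85%, and at least 2-fold above in 1, 0.535% against 0.525%. Ovary was lowest most often, in 43 regions (23.0% against 15.8%), followed by cerebellum in 33 (17.6% against 15.0%). Kidney was lowest in 3 (1.604% against 5.37%). Cerebrum was highest in 27 regions (14.4% against 8.18%), lung in 24 (12.8% against 13.0%) and kidney in 23 (12.3% against 7.17%). The median difference from the other tissues was −0.29 in ovary, against −0.14 over all autosomes, and 0.16 in kidney, against 0.08.

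The 5 regions in which spleen was lowest relative to the others included 2 in the last 100 kb of the window, with other regions between them. At 2911373 to 2912205 the relative fold was 0.391 in spleen, while the other tissues ran from 0.921 in mammary gland to 2.23 in cerebellum with a median of 1.26. At 1421473 to 1421825 it was 0.490 in spleen and from 0.608 to 1.71 elsewhere. At 1296163 to 1296799 spleen had 0.444 and the others 0.598 to 1.28. In these 3 regions spleen lay below all 10 other tissues without overlap. The same held at 632342 to 632712, where spleen had 0.579 and the others 0.882 to 1.79, and at 2903589 to 2904615, where spleen had 0.656 and the next lowest tissue, colon, 0.725.

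The 5 regions in which spleen was highest relative to the others included the strongest spleen peak of the window. At 1220066 to 1220586 spleen had a relative fold of 1.36 against a median of 0.644 and a maximum of 1.11 in the others. At 1035911 to 1036944 spleen had 4.33 and the others from 0.595 in cerebellum to 3.43 in colon. At 2758088 to 2759020 spleen had 2.92 and the others up to 2.51. Spleen was above all other tissues in these 3 regions. At 1408309 to 1409004, with 4.24, it was below mammary gland (5.54), and at 2290224 to 2291341, with 4.26, below lung (5.34). These 10 regions were picked for the size of the spleen difference, which is therefore a description, and single folds of 1 list have no replicate error.

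**Figure D4:**
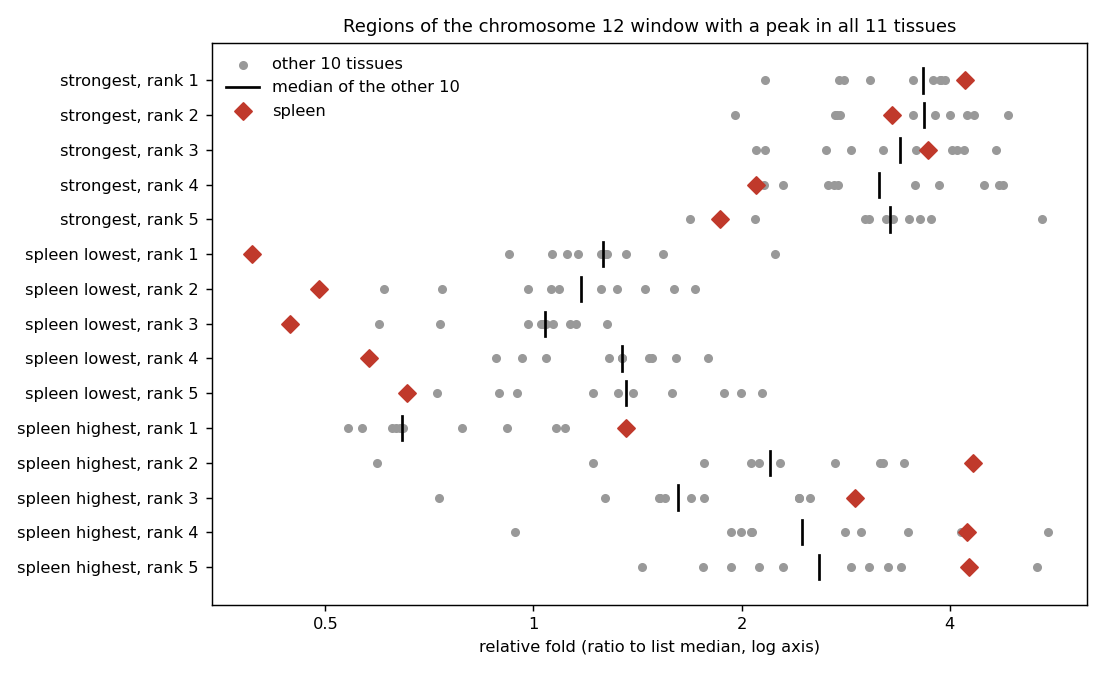
Relative fold (horizontal log axis, ratio to the list median) of the 5 strongest regions shared by all tissues, the 5 in which spleen was lowest and the 5 in which it was highest relative to the median of the other tissues, 1 row per region in order of rank. Red diamonds are spleen, grey points the other 10 tissues and black bars their median. Spleen lies left of all grey points in the 5 middle rows and right of all of them in the first 3 of the bottom rows.

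The strongest shared regions had high folds in every tissue. The strongest, at 1451794 to 1455948, was also the widest of the window at 4155 bases. Its relative fold was 4.23 in colon, 4.21 in spleen, 3.94 in kidney, 3.89 in stomach, 3.87 in mammary gland, 3.78 in cerebrum, 3.54 in pancreas, 3.07 in liver, 2.81 in cerebellum, 2.77 in lung and 2.16 in ovary. It was thus more than 2 times the list median in all 11 tissues. A pair of nearby regions, at 1255426 to 1256699 and 1258187 to 1260848, came next in strength, with mean relative folds of 3.28 and 3.38 and ranges of 2.10 (cerebellum) to 4.67 (lung) and 1.96 (ovary) to 4.85 (lung). The regions at 1959571 to 1960618 and 1498827 to 1500726 had means of 3.14 and 2.98. In these last regions spleen, at 2.10 and 1.86, was the lowest and the second lowest tissue. The other wide regions, at 1126837 to 1130219 (3383 bases) and 1346833 to 1349641 (2809 bases), had mean relative folds of 2.55 and 2.36.

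Regions of 1 tissue had no such strength. The strongest was in cerebellum, at 751396 to 751700, with a relative fold of 1.30, followed by a colon region at 2992015 to 2992318 with 1.07 and a cerebellum region at 2482357 to 2482640 with 1.02. The strongest regions of spleen alone came next.

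Peaks were unevenly spread along the window, and the same 100-kb step held the most covered bases in all 11 tissues. In steps of 100 kb the union regions were densest between 1400001 and 1500000, with 48 regions and 35.1 kb covered, more than in 91.2% of the 22054 such steps on the autosomes. There, 22 regions had a peak in all tissues, and the covered bases ran from 20.5 kb in cerebellum to 29.2 kb in lung, with spleen at 22.8 kb. From 1600001 to 2600000 peaks were sparse: 129 regions in 1 Mb, 12.9 per 100 kb, against 29.8 per 100 kb before and 28.0 after. The sparsest step, from 1700001 to 1800000, had 7 regions and 2.79 kb, and 18.0% of autosomal steps had less. The steps from 2100001 and from 2500001 held no region shared by all tissues. Over the window as a whole, 20 of the 30 steps were above the autosomal median of 6.13 kb. These stretches were delimited after the values were seen.

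The sparse stretch, delimited after the values were seen, also had other shares than the rest of the window, a difference not tested. Of its 129 regions, 23 (17.8%) had a peak in all tissues and 31 (24.0%) in 1 tissue. Over all autosomes these shares were 27.0% and 18.2%. In the 476 regions before the stretch they were 27.3% and 15.3%, and in the 112 regions after it 30.4% and 17.0%. Cerebellum had 92 peaks in the sparse stretch, ovary 88 and cerebrum 80, while the other 8 tissues had between 54 (colon) and 65 (stomach). Spleen had 59. As a share of all peaks of the window this was 18.7% in cerebellum, 17.7% in ovary, 16.7% in cerebrum and at most 14.5% in the other 8 tissues, with spleen at 12.8%. The lists of ovary (353642 autosomal peaks) and cerebellum (340948) are also the longest, and the part of list length in these counts was not tested. The longest stretch without a peak in any tissue ran from 2912206 to 2951707 (39.5 kb), next to the region in which spleen was lowest. The next ran from 1691925 to 1729579 (37.7 kb) and from 1740317 to 1777833 (37.5 kb). Gaps over 20 kb made up 2.09% of those in the window and 3.72% of those on the autosomes. Whether they hold repeats or unknown bases was not analysed here.

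**Figure D5:**
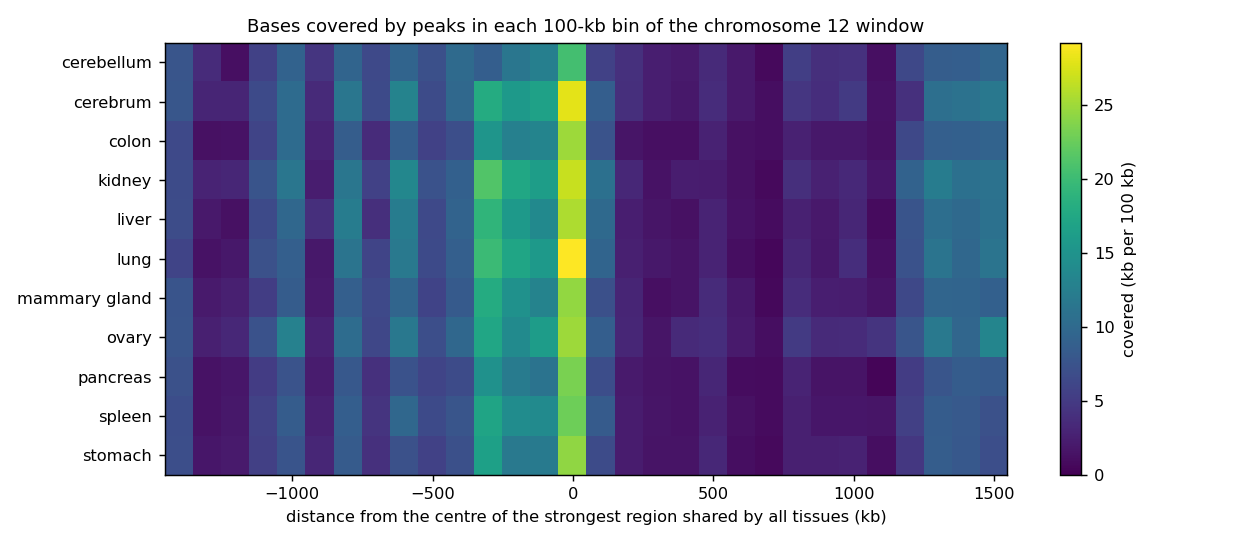
Bases covered by peaks in each 100-kb step of the chromosome 12 window (colour, kb per 100 kb), 1 row per tissue, against the distance in kb from the centre of the strongest region shared by all tissues. The step at the centre is the brightest in every row, from 20.5 kb in cerebellum to 29.2 kb in lung, and the sparse stretch follows to its right.

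Single tissues stood apart in a few steps. Between 1100001 and 1200000 cerebellum had 19 peaks and 8.78 kb covered, while the other tissues had 29 to 37 peaks and 14.7 kb (pancreas) to 21.3 kb (kidney). Of the 28 regions missing in cerebellum alone, 8 lay in this step, among them one at 1113676 to 1114115 with a median relative fold of 1.63 in the other tissues. Between 2500001 and 2600000 ovary had 14 peaks and 4.34 kb, and the others 2 to 7 peaks and at most 1.79 kb. These steps were chosen after their values were seen.

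The brain tissues, in which few cells carry class II molecules, were compared with the other 9 tissues by the same 4 measures. Cerebellum and cerebrum together had 0.153% of their autosomal peaks in the window against 0.162% ± 0.00915 (SD, n = 9; exact permutation test, two-sided, p = 0.273, adjusted p = 0.618). They had 0.116% of their covered bases there against 0.124% ± 0.00530 (SD, n = 9), a difference that 3 of the 55 possible splits reached (exact permutation test, two-sided, p = 0.0545, adjusted p = 0.436). Here cerebellum had 0.109% and cerebrum 0.123%, and the median over the 11 tissues was also 0.123%. Their median relative fold was 0.998 against 0.963 ± 0.0441 (SD, n = 9; exact permutation test, two-sided, p = 0.309, adjusted p = 0.618). The presence in union regions of the window differed from that on the autosomes by −1.18 points in the brain tissues and by 3.19 ± 4.27 points in the others (SD, n = 9; exact permutation test, two-sided, p = 0.182, adjusted p = 0.618). The smallest p that 2 tissues against 9 can give is 0.0182, and a single test at that value has an adjusted p of 0.145 over 8 tests, so 1 brain difference alone could not pass the threshold. The difference in median relative fold, 0.0350, became −0.00611 with a window of 4 Mb and −0.0119 with lists of equal size. By exact permutation these had p = 0.8 and 0.709. With folds divided by the list mean the difference became 0.0981 (p = 0.0182 by exact permutation).

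Within the 7 tissues whose input is titled jj8, the brain tissues had the lowest values of 3 measures. Peaks in the window were 0.153% against 0.167% ± 0.00385 (SD, n = 5), covered bases 0.116% against 0.127% ± 0.00376, and the presence difference −1.18 points against 5.61 ± 0.923 points. Each was the largest difference of the 21 splits, which gives p = 0.0476 by a two-sided exact permutation test, the lowest value this number of tissues allows (adjusted p = 0.127). Over all 11 tissues the brain difference in percent of peaks was −0.00919, −0.00175 with lists of equal size, −0.00256 with the stricter threshold and −0.0273 with a window of 4 Mb. That in percent of covered bases was −0.00833, and −0.00721, −0.00517 and −0.0207 in the same settings. A window of 2 Mb gave −0.00811, with p = 0.0364 by a two-sided exact permutation test (adjusted p = 0.291). The difference in presence was −4.36 points, and −2.10, −2.01 and −8.27 points with equal size, the stricter threshold and 4 Mb. Cerebellum and cerebrum differed from each other, with 0.144% and 0.162% of peaks, 0.109% and 0.123% of covered bases and −3.77 and 1.42 points of presence. Regions with a peak in both brain tissues alone numbered 5, or 0.697% against a background of 0.973%, and regions with a peak in all tissues but these numbered 2, or 0.279% against 0.289%.

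At the end of the window, the last region inside lay at 2996258 to 2998557, with a peak in all 11 tissues and a mean relative fold of 2.10. The first outside, at 3000242 to 3001016, also had a peak in all 11 tissues and a mean of 1.42.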

How the data were processed

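Peak lists of 11 tissues, 1 per tissue, were analysed as deposited by the authors. The build, CanFam3.1, is given per the submitters' processing notes. The aligner, the peak caller, its filters and the way in which the libraries of a tissue were combined are not given in the sources used here. The columns carry no header and were taken in the order of the narrow-peak format. Column 7 was taken as the deposited fold (ratio) of each peak, whose control is not stated. The deposited score (whole part of 10 times the −log10 p-value), the deposited −log10 p-values and the summit offsets support no result. No list had overlapping peaks.

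Windows, merged union regions, relative folds (fold divided by the list median) and Jaccard indices were computed in Python 3.11.15 with numpy 2.4.6 and pandas 2.3.3. Wilson intervals (statsmodels 0.14.6) cover counting error only. Groups of tissues were compared by exact permutation over all splits, with Benjamini-Hochberg adjustment over 8 tests. The p-values measure only the spread between tissues. The functions were tested on simulated lists. Alternatives were other window ends, thresholds, list sizes, presence rules, scalings and sets of tissues. Start sites of MHC genes could not be placed without an annotation of this build, so that comparison was not made. Regions were named by rule: the strongest with a peak in all tissues, in 1 tissue, in spleen alone and in all but spleen, those with the largest spleen difference, and the widest. The window, the gene list, the rules and the tests were chosen with earlier results of these data known.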

Additional observations from a re-analysis of the deposited data

How the results depend on the processing

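No paired analysis was possible because each tissue has a single list. None of the 8 tests passed the threshold of 0.05 after adjustment under any alternative. This says nothing about stability: the spleen tests could not pass (smallest p 0.0909 with 11 tissues), nor could the 7 tissues with input jj8, nor a single brain test at its smallest p, 0.0182. The comparison of MHC gene start sites was not run, for want of an annotation of this build. Directions turned for 3 of the 8 differences. The percent of covered bases in the window, spleen minus the others, was 0.00126 and became −0.00178 with a window of 4 Mb, −0.00139 with a stricter threshold (the upper 50% of each list by fold) and −0.00168 without cerebellum and ovary. The median relative fold of spleen minus the others, −0.00680, became 0.000739 with that stricter threshold and 0.00404 among the 6 tissues with a shortest peak under 200 bases. The last alternative and the one without cerebellum and ovary were chosen after seeing the data. That of the brain tissues, 0.0350, became −0.00611 with 4 Mb and −0.0119 with equal list sizes, and 0.0981 with division by the list mean (exact permutation test, two-sided, p = 0.0182, adjusted p = 0.145; adjusted p over its alternatives from 0.145 to 1). The cause was not tested.

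With each tissue left out in turn, the spleen differences ran from 0.00267 to 0.00615 for the percent of peaks, from −0.000252 (without cerebellum) to 0.00228 for covered bases, from −0.0148 to −0.00164 for relative fold and from 1.40 to 2.94 points for presence. The brain differences, for which only the other 9 tissues were left out and neither brain tissue, ran from −0.0118 to −0.00792, from −0.00977 to −0.00738, from 0.0269 to 0.0417 and from −5.65 to −3.91 points.

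The percent of regions with a peak in all tissues fell from 26.1% (27.0% over the autosomes) to 15.1% with the stricter threshold (17.9%), 20.6% with equal list sizes (25.2%) and 19.2% where peaks had to cover 50% of the region (19.3%), and that in 1 tissue rose from 17.2% (18.2%) to 20.6% with the stricter threshold (22.7%). The median rank by covered bases moved from 22 to 19 with 4 Mb and to 23 with the stricter threshold and with equal sizes. The median rank by peak number moved from 22 to 21 with 2 Mb, 17 with 4 Mb and 23 with the stricter threshold. Regions with spleen lowest fell from 22 to 5 with the stricter threshold and 10 with equal sizes, and those with spleen highest from 15 (8.02%, autosomes 7.79%) to 3 (4.76%, 7.09%) and 6 (4.62%, 7.37%), where fewer regions have a peak in all tissues. The counts in spleen alone and in all but spleen were varied after seeing the data: those in spleen alone went from 15 to 7 with the stricter threshold, and those in all but spleen from 7 of 717 (0.976%) to 13 of 1073 (1.21%, interval 0.709% to 2.06%, autosomes 0.835%) with 4 Mb. The unknown read depth limits every statement on a missing peak.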
